A study of Mus musculus with 2 samples.

Results

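Genes of calcium and cAMP signalling other than Camk1d were followed through a mouse model of prostate cancer (PCa). These were the kinases Camkk1, Camkk2, Camk1, Camk4, Camk2d and Camk2g, the transcription factors Creb1 and Atf1, and the coactivators Crtc2 and Crtc3, which make up 10 of the 32285 genes in the count tables. They were taken by symbol, and all 10 had at least 1 unique molecular identifier (UMI, a tag that marks 1 captured RNA molecule) in each library. Tumors came from RM-1 cells, a mouse PCa line implanted into the prostate, and were labelled WT in both groups. One library came from a tumor given vehicle (control) and 1 from a tumor given enzalutamide (ENZ), an androgen receptor antagonist, so every cancer cell descends from a single cell line and each group is 1 tumor. The study's methods describe repeated tail vein injections of ENZ for its treatment groups without tying them to the sequenced pair of tumors, and the age of the mice is not given in the sources used here. Immune cells were enriched while the cell suspension was sorted, so that the number of cells of a class does not reflect the tumor.

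In this pathway, calcium bound to calmodulin activates the kinases CAMKK1 and CAMKK2, which in turn phosphorylate CaMK1 and CaMK4. CaMK4 in the nucleus, like protein kinase A, phosphorylates CREB1 and its close relative ATF1, which bind cAMP response elements in promoters. The CRTC proteins are held in the cytoplasm by salt-inducible kinases until calcineurin or a loss of that phosphorylation lets them enter the nucleus and join CREB1, and CAMKK2 also activates the energy sensor AMPK. All of these steps act on protein, and RNA levels measure none of them.

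The control library held 170830346 UMIs and the ENZ library 162030149. Barcodes with at least 1000 UMIs and at most 20% mitochondrial UMIs numbered 12253 in the control library and 10271 with ENZ, with medians of 6376 and 8127 UMIs. Cancer cells were defined by at most 1 UMI of Ptprc, the leukocyte antigen CD45, and at least 5 UMIs summed over Cacna2d1, Rbfox2, Kif21a and Rhox5, which gave 4006 control and 4469 ENZ cells with medians of 21024.5 and 22115 UMIs. The 5 immune classes are named here for the gene that defined them. Cd3 cells carry the T cell receptor complex genes Cd3d, Cd3e and Cd3g (422 control and 562 ENZ cells), Ncr1 cells the natural killer receptor gene Ncr1 (208 and 81), C1q cells the complement genes C1qa, C1qb and C1qc of macrophages (1106 and 579), Ly6c2 cells the monocyte gene Ly6c2 (325 and 396), and S100a8 cells the neutrophil granule gene S100a8 (652 and 257). The remaining 5534 control cells and 3927 ENZ cells fell in none of the classes. Between the libraries 39 kept barcodes were shared, of which 15 control and 17 ENZ barcodes were cancer cells.

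The classes were checked against genes that had not defined them. In cancer cells the keratin gene Krt8 reached 434 UMIs per 1000000 UMIs of the class (CPM) in the control library and 506 CPM with ENZ, and Krt18 reached 354 and 357 CPM. Krt8, Krt18, Krt19, Meis2 and Pcdh9 together summed to 1284 and 1334 CPM there and to at most 61.2 and 67.3 CPM in any immune class. Genes of mast cells differed between the libraries within immune classes. Cpa3 and Mcpt4 summed to 359 CPM in control and 0 CPM in ENZ Ncr1 cells, to 230 and 1.37 CPM in S100a8 cells and to 51.8 and 0 CPM in C1q cells, while Cd3 cells held 1.28 CPM in control and 84.9 CPM in ENZ. Collagen and other fibroblast genes summed to 1349.7 CPM in control and 37.1 CPM in ENZ S100a8 cells, and to 282 and 25.0 CPM in Ncr1 cells. Cancer cells held 478 and 444 CPM of them. The part of these other cells in the values below was not tested.

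Each level below is the summed UMI count of a gene in a class as CPM, with its exact 95% Poisson interval in parentheses, and each ratio carries an exact conditional binomial interval. All of these intervals cover counting error only. With 1 library per group there is no replicate check and no test between control and ENZ, and a difference between the libraries cannot be told apart from one between 2 mice. A class sum also cannot separate fewer expressing cells from less RNA per cell. A gene was counted as differing between libraries at 1.5-fold or more, given at least 10 CPM in either library, and between cancer cells and the mean of the 5 immune classes at 2-fold or more in both libraries. No level of 1 gene is compared with that of another, since counts were not scaled by length.

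Free RNA, which reaches every droplet, was taken from barcodes with 10 to 100 UMIs. In control and ENZ free RNA, Camk2d was at 173 and 205 CPM, Crtc3 at 59.5 and 55.2 CPM, Creb1 at 55.2 and 67.9 CPM, Atf1 at 53.1 and 47.2 CPM and Camk1 at 49.9 and 57.6 CPM. Camk2g was at 40.4 and 33.6 CPM, Crtc2 at 25.5 and 24.8 CPM, Camkk2 at 24.4 and 15.2 CPM, Camk4 at 20.2 and 24.8 CPM and Camkk1 at 5.31 and 5.60 CPM. Each of these rests on 5 to 256 UMIs. In cancer cells Creb1, Crtc2 and Camk4 lay below these levels in both libraries, and Camkk2 and Crtc3 in the control only, while Crtc2 lay below them in every class. A level at or below that of free RNA shows only that the gene takes no larger share of the class than of free RNA. Free RNA barcodes held on average 53.6 UMIs in the control library and 68.2 with ENZ. Creb1 had 0.00296 and 0.00463 UMIs per free RNA barcode, against 1.21 and 1.41 per cancer cell. Subtracting the free RNA profile left the same genes past 2-fold between cancer cells and the immune mean and the same genes past 1.5-fold between the libraries.

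**Figure D1:**
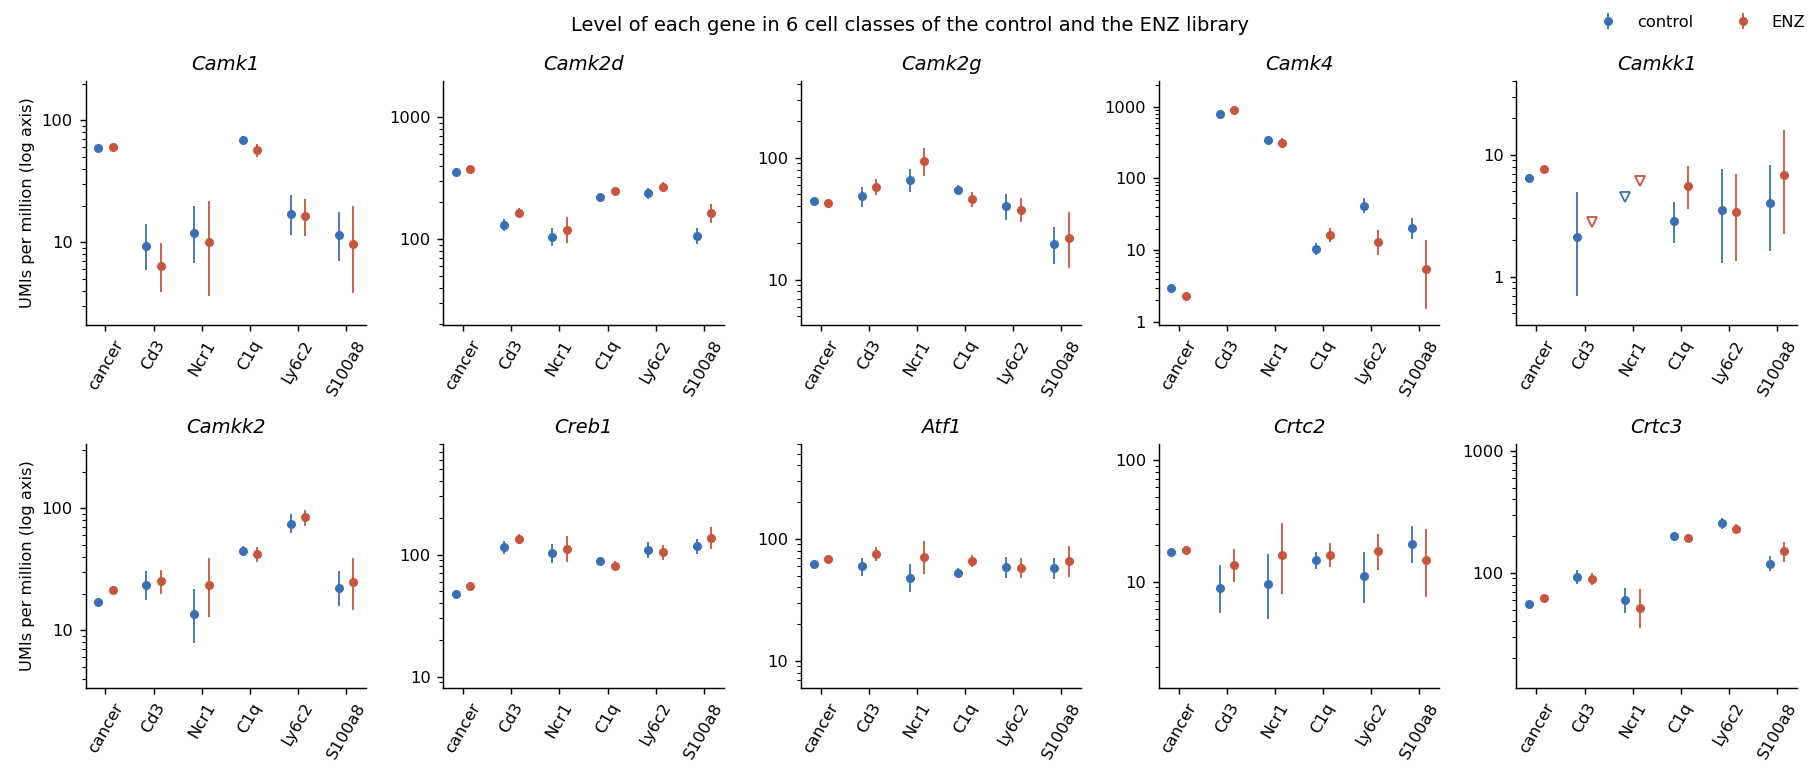
Level of each gene in the 6 classes, in CPM on a log axis, for the control and the ENZ library, with 95% Poisson intervals as bars and open triangles for upper bounds where a class held 3 UMIs or fewer. Camk4 spans the widest range, from 2.95 CPM in control cancer cells to 793 CPM in control Cd3 cells, and Atf1 the narrowest, from 48.1 to 61.7 CPM in the control.

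The 10 genes differed in where they were high. Camk1 was at least 2-fold higher in cancer cells than in the immune mean in both libraries, while Camk4, Creb1 and Crtc3 were at least 2-fold lower. Camkk2 and Camk2d passed 2-fold in the control only, at 2.11-fold lower and 2.23-fold higher, and gave 1.86-fold lower and 1.94-fold higher in the ENZ library. Camk2g, Atf1 and Crtc2 stayed under 2-fold in both libraries, and Camkk1 stayed under 10 CPM in cancer cells and in all 5 immune classes. Among all genes at 10 CPM or more, 27.2% were at least 2-fold higher in cancer cells in both libraries and 18.4% at least 2-fold lower. The median of those genes was itself higher in cancer cells, by 0.44 on the log2 scale in the control library and 0.40 with ENZ. With median-of-ratios scaling, which centres that shift, the count for Camk1 ended, at a log2 ratio of 0.91 in the control library and 1.30 with ENZ, and Camkk2 joined the lower genes at -1.51 and -1.27. Creb1 no longer passed when the marker limits of the classes were doubled, at -0.99 and -0.87. Camk2d joined the higher genes with the marker limits doubled and when CPM was averaged over cells. It also joined them when mitochondrial, ribosomal protein and rRNA-like genes were left out of the CPM total.

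Of the upstream kinases, Camkk1 was close to the limit of detection. It held 655 UMIs in control and 869 UMIs in ENZ cancer cells, or 6.46 CPM (5.97 to 6.97) and 7.58 CPM (7.08 to 8.10), which is 0.1635 and 0.194 UMIs per cell. No more than 29 UMIs were found in any immune class, and ENZ Ncr1 cells had none, a count that allows up to 3 UMIs. No neighbours in the order of the classes differed beyond counting error, but farther apart the cancer level lay above that of Cd3 cells, at 2.14 CPM (0.693 to 4.98) in control and 0.957 CPM (0.197 to 2.80) in ENZ cells. In C1q cells, with 29 control and 26 ENZ UMIs, the level was 2.84 CPM in the control and 5.50 CPM with ENZ, a ratio of 1.93 (1.09 to 3.40), under the limit of 10 CPM.

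Camkk2, the kinase that also activates AMPK, was highest in Ly6c2 cells. It reached 74.9 CPM (62.4 to 89.1) in control and 84.3 CPM (72.2 to 97.7) in ENZ Ly6c2 cells. C1q cells followed at 44.9 CPM (40.9 to 49.2) and 42.3 CPM (36.6 to 48.6). Both classes stood apart from each other and from the rest in each library. Cancer cells were low, at 17.0 CPM (16.2 to 17.8) and 21.5 CPM (20.7 to 22.4), and did not differ from Ncr1 cells beyond counting error. At an equal depth of 1000 UMIs per cell, Camkk2 was detected in 7.69% of control and 8.08% of ENZ Ly6c2 cells against 1.35% and 2.06% of cancer cells. Without thinning the shares were 27.7% and 27.3% against 30.1% and 35.8%, at medians of 4794 and 5057 UMIs per Ly6c2 cell and 21024.5 and 22115 UMIs per cancer cell.

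Camk1 (ENSMUSG00000030272), a cytoplasmic kinase activated by the CAMKKs, was higher in cancer cells and C1q cells than in the other classes. In cancer cells it held 59.0 CPM (57.5 to 60.5) in the control library and 60.9 CPM (59.5 to 62.3) with ENZ. In C1q cells it held 69.3 CPM (64.3 to 74.6) and 56.9 CPM (50.3 to 64.1). The C1q level was above the cancer level in the control, and the pair did not differ beyond counting error in the ENZ library. Free RNA held 49.9 and 57.6 CPM, so that the ENZ level of C1q cells lay below it and that of cancer cells just above. Cd3 cells were lowest, with 22 UMIs or 9.39 CPM (5.89 to 14.2) in the control library and 20 UMIs or 6.38 CPM (3.90 to 9.86) with ENZ. Ncr1, Ly6c2 and S100a8 cells, at 9.61 to 17.1 CPM over both libraries, lay below cancer and C1q cells, and neighbours in the order from Ly6c2 down to Cd3 cells did not separate. Compared directly, ENZ Ly6c2 cells at 16.4 CPM (11.3 to 22.9) lay above ENZ Cd3 cells. In cells thinned to 1000 UMIs, Camk1 was detected in 5.14% and 5.73% of cancer cells and in 6.24% and 6.04% of C1q cells, against 0.474% and 0.712% of Cd3 cells. The unthinned shares were 66.8% and 68.8%, 39.7% and 29.7%, and 5.21% and 3.20%, in the same order. Camk1 lies at chr6:113334124-113343984 on the minus strand of GRCm38 and overlaps Ogg1, a DNA repair gene on the opposite strand.

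Camk4 (ENSMUSG00000038128), the nuclear CREB1 kinase known from lymphocytes and neurons, had the steepest pattern. It reached 793 CPM (757 to 830) in control and 893 CPM (861 to 927) in ENZ Cd3 cells, and 344 CPM (313 to 379) and 313 CPM (269.7 to 361) in Ncr1 cells. In cancer cells it was at 2.95 CPM (2.62 to 3.30) and 2.32 CPM (2.05 to 2.62). The Cd3 level was 2.30-fold and 2.86-fold that of Ncr1 cells and 9.44-fold and 12.8-fold the mean of the other 5 classes. At equal depth, 53.1% and 53.6% of Cd3 cells and 0.300% and 0.403% of cancer cells had a Camk4 UMI (85.3% and 89.0%, and 3.59% and 3.54%, without thinning). The cancer level lay below the 20.2 and 24.8 CPM of free RNA, which shows only a smaller share than in free RNA. Camk4 had 0.0746 control and 0.0595 ENZ UMIs per cancer cell, against 0.00108 and 0.00169 per free RNA barcode. The source of these UMIs was not tested, and no fold of another class over the cancer level is given. Ratios of Camk4 between groups of cancer cells appear below as values only. The 144 control and 158 ENZ cancer cells with a Camk4 UMI held up to 13 and up to 10 UMIs each.

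C1q, Ly6c2 and S100a8 cells held few Camk4 UMIs, in few cells. Ly6c2 cells held 71 UMIs in 17 control cells and 27 UMIs in 9 ENZ cells, or 41.9 CPM (32.7 to 52.8) and 13.0 CPM (8.57 to 18.9). S100a8 cells held 36 UMIs in 12 control cells and 4 UMIs in 4 ENZ cells, or 20.6 CPM (14.4 to 28.5) and 5.49 CPM (1.496 to 14.1). C1q cells held 106 UMIs in 46 control cells and 78 in 29 ENZ cells, or 10.4 CPM (8.50 to 12.6) and 16.5 CPM (13.0 to 20.6). Single cells carried up to 9 UMIs in Ly6c2 cells, up to 12 in control S100a8 cells and up to 18 in ENZ C1q cells. Most of these levels lay at or below the free RNA level, and only control Ly6c2 cells were clearly above it. Cd3d, Cd3e and Cd3g summed to 6.5 and 5.3 CPM in Ly6c2 cells, but cells of that class were limited to at most 1 UMI of them. T cell genes outside that limit (Trac, Trbc1, Trbc2, Cd28, Lck, Il7r, Cd4, Cd8a, Cd8b1 and Foxp3) summed to 66.0 and 60.2 CPM there. The natural killer genes Klrb1c, Klre1, Gzma, Prf1, Nkg7 and Eomes summed to 53.1 CPM in control and 8.67 CPM in ENZ Ly6c2 cells. Siglech, a gene of plasmacytoid dendritic cells, reached 35.4 and 44.3 CPM. The part of other cells in these Camk4 values was not tested.

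The CaMKII subunit genes behaved differently from each other. Camk2d was highest in cancer cells, at 357 CPM (353 to 361) in the control library and 376 CPM (373 to 379.8) with ENZ. Ly6c2 cells held 238 CPM (215 to 262) and 269.6 CPM (248 to 293), and C1q cells 223 CPM (214 to 233) and 249.6 CPM (236 to 264). Cancer cells stood above every immune class in both libraries, and Ly6c2 and C1q cells did not differ beyond counting error. Cd3 cells held 129.8 and 165 CPM, Ncr1 cells 104 and 119.8 CPM, and S100a8 cells 106 and 163 CPM, all below the 173 and 205 CPM of free RNA. At equal depth Camk2d was detected in 30.5% and 32.8% of cancer cells against 8.17% and 14.8% of Ncr1 cells (97.2% and 98.5%, and 32.2% and 46.9%, without thinning). The gene spans chr3:126596302-126846326 on the plus strand and contains 7 unconfirmed transcripts of the same strand and 1 antisense gene, Gm15551, so that reads from these cannot all be told apart.

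Camk2g was highest in Ncr1 cells of both libraries. Its level in Ncr1 cells was 65.7 CPM (52.2 to 81.5) in the control library and 93.2 CPM (70.4 to 121) with ENZ, and that in Cd3 cells 48.3 CPM (39.8 to 58.0) and 57.8 CPM (49.6 to 66.8). Cancer cells held 44.4 and 42.9 CPM. S100a8 cells were lowest at 19.5 CPM (13.5 to 27.2) and 22.0 CPM (12.6 to 35.7). In the control every class but S100a8 overlapped with its neighbour, while in the ENZ library Ncr1 cells stood above Cd3 cells and Cd3 cells above C1q cells.

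Creb1 (ENSMUSG00000025958), the transcription factor itself, was lower in cancer cells than in every immune class, and lower there than in free RNA. Cancer cells held 47.9 CPM (46.6 to 49.3) in the control library and 55.1 CPM (53.7 to 56.5) with ENZ. The immune classes ranged from 88.9 CPM in C1q to 117 CPM in S100a8 cells of the control and from 80.6 CPM in C1q to 137 CPM in S100a8 cells of the ENZ library. Within the immune classes no neighbours differed beyond counting error in the control, although C1q cells at 88.9 CPM (83.2 to 94.9) lay below S100a8 cells at 117 CPM (102 to 134) when these were compared directly. With ENZ the C1q cells were below their neighbour, Ly6c2 cells at 104 CPM. Thinned to 1000 UMIs, 4.84% and 4.88% of cancer cells had a Creb1 UMI against 11.4% and 13.3% of Cd3 cells. The unthinned shares were 59.2% and 65.1% against 39.1% and 45.4%.

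Atf1, which pairs with CREB1 on the same sites, was the most even of the 10. It ranged from 48.1 CPM in Ncr1 to 61.7 CPM in cancer cells of the control, a 1.28-fold range, and from 57.8 CPM in Ly6c2 to 75.6 CPM in Cd3 cells of the ENZ library, a 1.31-fold range. No neighbouring classes differed beyond counting error. Farther apart, control cancer cells at 61.7 CPM (60.2 to 63.3) lay above control C1q cells at 52.9 CPM (48.5 to 57.6). Control Ncr1 and C1q cells lay below the 53.1 CPM of Atf1 in free RNA, and the other classes above it or, with ENZ, above 47.2 CPM.

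The coactivator genes differed in where they were found. Crtc3 was highest in Ly6c2 cells, at 254 CPM (231 to 279) in the control library and 228 CPM (208 to 249.7) with ENZ, and next in C1q cells, at 201 CPM (192 to 209.7) and 194 CPM (182 to 207). S100a8 cells held 119 CPM (103 to 136) and 149.7 CPM (123 to 181), and Cd3 cells 92.2 and 89.0 CPM. Cancer cells, at 55.6 and 62.4 CPM, did not differ from Ncr1 cells, at 60.1 and 51.6 CPM. The order Ly6c2, C1q, S100a8 and Cd3 cells was the same in both libraries, each step beyond counting error. Crtc2 was between 8.97 and 20.6 CPM in all classes of both libraries, below the 25.5 and 24.8 CPM of free RNA throughout. It had 0.449 and 0.465 UMIs per cancer cell and 0.138 and 0.136 per C1q cell, against 0.00137 and 0.00169 per free RNA barcode. Its class levels are given as values only. Control cancer cells held 17.7 CPM and control Cd3 cells 8.97 CPM, and in the ENZ library no neighbours differed.

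For the 3 genes whose highest class was at least 4-fold above the lowest in both libraries, the genes most alike across the 12 class sums were taken by Pearson correlation of log2(CPM + 10) among 9181 genes. The 12 sums share 2 libraries and 6 cell classes and are not independent, so the values are a description. Among those most like Camk4 were Lef1 (0.993), a T cell transcription factor, and Kdm2b (0.987), a histone demethylase. Camk1 was most like Tmem37 (0.968), Cmtm3 (0.967) and Bcar3 (0.960), and Crtc3 most like Rbm47 (0.983), Tmem50b (0.981) and Arl8b (0.978).

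Between control and ENZ cancer cells none of the 8 genes at 10 CPM or more passed 1.5-fold, beside 1.52% of all 8767 genes at that level, or 0.513% higher and 1.0% lower in ENZ. The median log2 ratio of ENZ over control was 0.11 for the 8 genes and 0.04 for all genes, and the median absolute value 0.11 and 0.14. Camk1d, the family member on which the study centred, was at 657 CPM in control and 1541 CPM in ENZ cancer cells, for a ratio of 2.35 (2.33 to 2.37). Free RNA carried Camk1d at 6391 CPM in the control library and 6652 CPM with ENZ, above every class of both libraries.

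**Figure D2:**
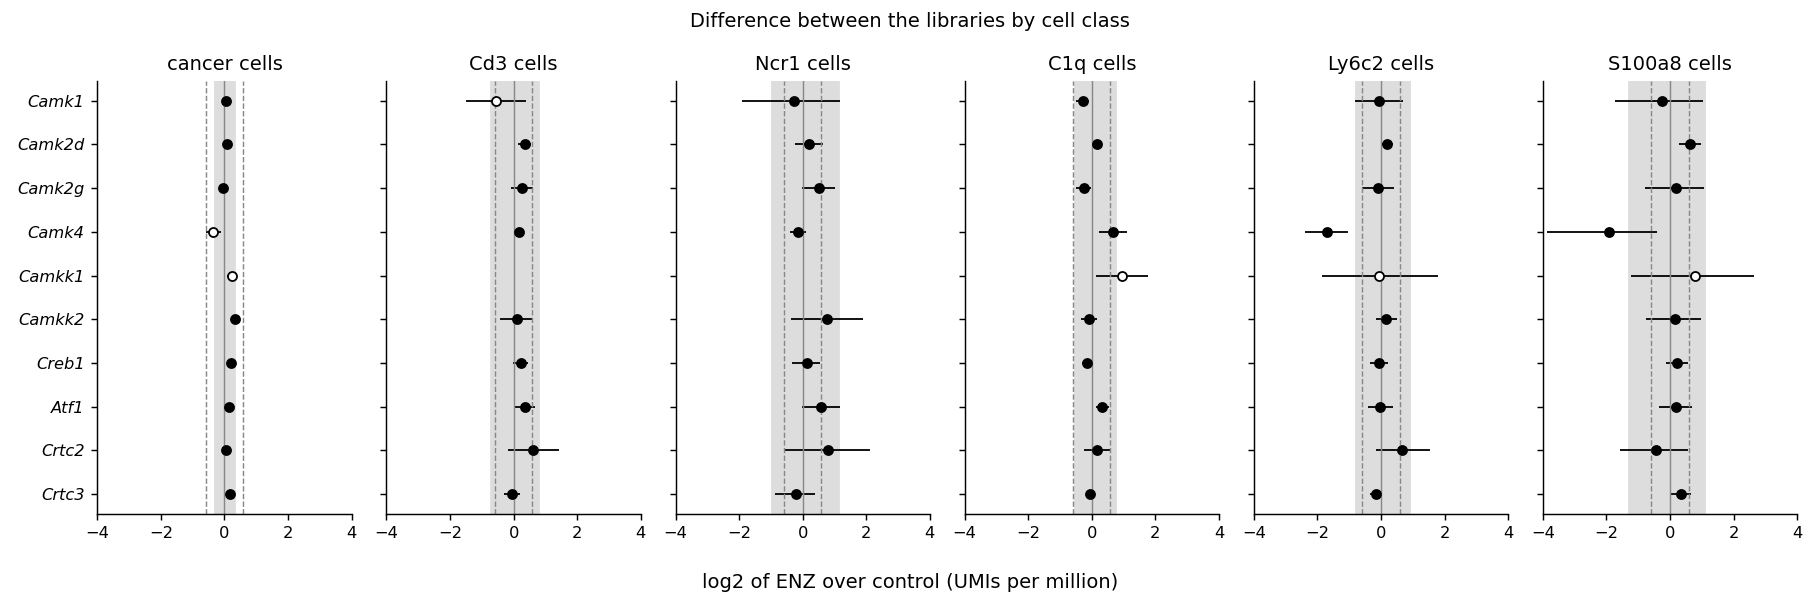
Log2 ratio of ENZ over control for each gene in the 6 classes, with 95% intervals as bars, open points for genes under 10 CPM in both libraries, dashed lines at 1.5-fold and a grey band from the 5th to the 95th percentile of all genes. Points with 3 UMIs or fewer in a library are left out, all 8 cancer genes at 10 CPM or more lie within 1.5-fold, and the band is widest in Ncr1 and S100a8 cells.

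Camkk2 had the largest difference of the 8 genes in cancer cells. It was at 17.0 CPM in the control library and 21.5 CPM with ENZ, a ratio of 1.27 (1.19 to 1.35), or 0.34 on the log2 scale. The control level lay below the 24.4 CPM of free RNA and the ENZ level above its 15.2 CPM. The ratio lay just outside the range from -0.31 to 0.33 that held the central 90% of all genes. Creb1 followed with a ratio of 1.15 (1.11 to 1.19), Crtc3 with 1.12 (1.08 to 1.16), Atf1 with 1.10 (1.06 to 1.14) and Camk2d with 1.05 (1.04 to 1.07). The intervals of Camk1 at 1.03 (0.997 to 1.07), Crtc2 at 1.02 (0.960 to 1.09) and Camk2g at 0.965 (0.927 to 1.01) included 1. The 2 genes under 10 CPM gave 1.17 (1.06 to 1.30) for Camkk1 and 0.787 (0.665 to 0.931) for Camk4. Per cell, a cancer cell held on average 1.49 control and 1.56 ENZ UMIs of Camk1, 0.430 and 0.552 of Camkk2, and 1.21 and 1.41 of Creb1.

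In the immune classes 8 values passed 1.5-fold. In Cd3 cells 1 of 8 genes passed, Crtc2 at a ratio of 1.53 (0.888 to 2.71) from 21 and 43 UMIs, beside 17.1% of all genes. In Ncr1 cells 2 of 9 passed, Camkk2 at 1.71 (0.781 to 3.69) and Crtc2 at 1.73 (0.670 to 4.37), beside 29.1%. All 3 of these intervals included 1, and all 3 calls ended when CPM was averaged over cells, at 0.41, 0.27 and 0.13 on the log2 scale. Genes of the Ly6c2 class also differed between the Ncr1 sums, with Chil3 at 2.40 and 133 CPM and Ly6c2 at 18.4 and 81.5 CPM. Their part in the Ncr1 values was not tested.

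In C1q cells 1 of 9 genes passed, Camk4 at 1.59 (1.17 to 2.15), beside 16.3% of all genes. The median of all genes there was 0.17 on the log2 scale, so that Camk4, at 0.67, was less than 1.5-fold above it, and it no longer passed with median-of-ratios scaling or when CPM was averaged over cells. A single ENZ cell held 18 of the 78 UMIs, and without the cell of each library with the most Camk4 UMIs the ratio was 1.34 (0.953 to 1.86), so that the call ended. In Ly6c2 cells 2 of 9 passed, Crtc2 at 1.59 (0.891 to 2.93) and Camk4 at 0.311 (0.192 to 0.490), beside 21.8%. Both calls ended with the marker limits doubled, at 0.21 for Crtc2 and -0.33 for Camk4 on the log2 scale. In S100a8 cells 2 of 9 passed, Camk2d at 1.54 (1.22 to 1.95) and Camk4 at 0.267 (0.0689 to 0.744), beside 32.7%. Genes of the Ly6c2 class also differed between these S100a8 sums, with Chil3 at 88.1 and 1260.5 CPM, Ly6c2 at 117 and 314 CPM and Vcan at 51.5 and 191 CPM, and their part in the Camk2d value was not tested. The Camk2d call ended with median-of-ratios scaling, with cells matched on UMIs and with the marker limits doubled, the last at 0.0853 against 0.63 on the log2 scale. The Camk4 value of S100a8 cells, -1.91 on the log2 scale, turned to 0.0643 without the cells of the highest doublet scores and to 0.00601 with the marker limits doubled. Without the cell of each library with the most Camk4 UMIs, Camk4 gave -1.74 in S100a8 and -2.08 in Ly6c2 cells. In Cd3 cells, where the gene is abundant, Camk4 was 1.13-fold (1.06 to 1.20) higher in the ENZ library.

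Among the immune values under 1.5-fold, few were resolved by counting. In Cd3 cells Camk2d gave a ratio of 1.27 (1.10 to 1.47) and Atf1 of 1.27 (1.03 to 1.58). In C1q cells, the largest immune class of the control, Camk1 gave 0.821 (0.711 to 0.946) and Camk2g 0.837 (0.712 to 0.981), while Atf1 gave 1.25 (1.09 to 1.44) and Camk2d 1.12 (1.04 to 1.20). Relative to the C1q median of all genes of 0.17, Camk1 and Camk2g, at -0.28 and -0.26 on the log2 scale, were the lowest of the 9 genes there. Every interval of Creb1 in the immune classes included 1, with levels of 115 and 134 CPM in Cd3 cells and 88.9 and 80.6 CPM in C1q cells.

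Cd3 cells were also split by the UMIs of Cd8a and Cd8b1, Cd4 and Foxp3, the regulatory T cell factor. Camk4 was high in each subset. It stood at 593 CPM in control and 845 CPM in ENZ cells with Cd8a or Cd8b1, at 725 and 824 CPM in cells with Cd4 and without Foxp3, and at 720.1 and 961 CPM in cells with Foxp3. The 245 control and 195 ENZ cells with none of these markers, the largest subset in each library, held 931 and 1019.8 CPM. Camk2g was higher in the Cd4 than in the Cd8 subset, at 76.9 against 34.2 CPM in the control, a ratio of 2.25 (1.14 to 4.48), and 89.5 against 28.6 CPM with ENZ, a ratio of 3.13 (1.97 to 5.12). Both libraries gave the same direction with intervals above 1, but the Cd8 levels lay below the 40.4 and 33.6 CPM of Camk2g in free RNA. Crtc3 gave 1.33 (0.812 to 2.14) and 2.20 (1.51 to 3.25) for the same pair of subsets. The subsets are small, with 87 and 143 Cd8 cells and 46 and 145 Cd4 cells, and the central 90% of all genes ranged from -1.64 to 1.82 on the log2 scale in the control library and from -1.36 to 1.31 with ENZ.

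Among cancer cells, those with at least 3 UMIs of the cell cycle genes Mki67 and Top2a were compared with those without any. Camkk2 was higher in the dividing cells, at 18.9 against 13.3 CPM in the control, a ratio of 1.42 (1.25 to 1.62), and 25.6 against 15.9 CPM with ENZ, a ratio of 1.60 (1.44 to 1.79). Both control levels lay below the 24.4 CPM of Camkk2 in free RNA, and both ENZ levels above its 15.2 CPM. Atf1 was higher by 1.21-fold in each library (1.13 to 1.29 and 1.14 to 1.28). The intervals of both genes were above 1 in each library.

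Camk2d was lower in dividing cells, at 310.3 against 429.8 CPM in the control library and 328 against 442 CPM with ENZ, or ratios of 0.722 (0.704 to 0.740) and 0.742 (0.725 to 0.759). Crtc3 was lower at 0.817 (0.767 to 0.871) and 0.845 (0.798 to 0.894), Camk2g at 0.841 (0.782 to 0.904) and 0.842 (0.786 to 0.902), and Camk1 at 0.882 in each library (0.829 to 0.939 and 0.832 to 0.935). The ratios of these 4 genes, and those of Camkk2 and Atf1, lay inside the central 90% of all genes, which ran from -0.78 to 1.01 and from -0.71 to 1.02 on the log2 scale. The 1554 control and 1589 ENZ dividing cells had medians of 30677 and 31893 UMIs, against 14861 and 16067 in the 1401 and 1575 cells without either transcript, and the part of depth in these ratios was not tested. Camk4, which lay below free RNA in both kinds of cancer cells, gave 0.409 (0.311 to 0.537) and 0.618 (0.456 to 0.839), the first outside that range at -1.29 on the log2 scale.

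**Figure D3:**
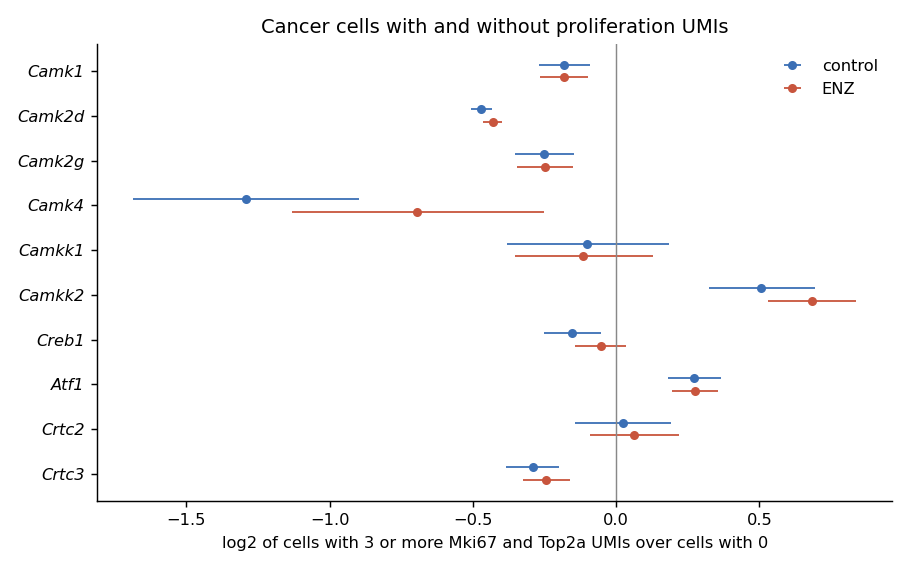
Log2 ratio of dividing cancer cells (at least 3 Mki67 and Top2a UMIs) over cancer cells with none, for each gene and library, with 95% intervals as bars. The intervals of Camkk2 and Atf1 lie above 0 in both libraries, and those of Camk2d, Crtc3, Camk2g, Camk1 and Camk4 below 0 in both.

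Lists of genes around the pathway were described in cancer cells by the same count, beside 1.52% of all genes past 1.5-fold. Of the other CaMK and related kinases, 7 of 13 had at least 10 CPM, and Camk1d alone passed. Dapk1, a calmodulin-regulated death kinase, was at 18.3 CPM in control and 12.9 CPM in ENZ cells, for a ratio of 0.704 (0.657 to 0.754), and Dclk1, a doublecortin-like kinase, at 13.0 and 17.0 CPM, a ratio of 1.30 (1.22 to 1.40). None of the 9 calmodulin and calcineurin genes at 10 CPM or more passed, with Nfatc2, an effector of calcineurin, giving the largest difference at 1.22. None of the 8 CREB family and coactivator genes passed. The histone acetyltransferase gene Crebbp was at 121.7 and 138 CPM and Creb3l2 at 79.2 and 90.5 CPM, while Crem, which encodes a relative of CREB1, was at 24.8 and 22.1 CPM.

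None of the 12 genes for other kinases of CREB and CRTC passed. Sik2, a salt-inducible kinase that retains CRTC in the cytoplasm, had the largest ratio of these at 1.26, and Rps6ka5, which encodes the CREB kinase MSK1, was at 10.4 and 8.42 CPM. None of the 5 AMPK genes passed, with Prkab2 at 8.68 and 10.6 CPM. The list of 9 rRNA-like genes, whose counts can come from ribosomal sequence, includes Camk1d and was drawn up from earlier results of these data, so that its count is not independent. Of the 9, 6 were higher in ENZ cancer cells, among them Gm42418 at 11022 and 29414 CPM and Lars2 at 379.8 and 983 CPM, with a median of 1.23 on the log2 scale, the value of Camk1d itself.

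**Figure D4:**
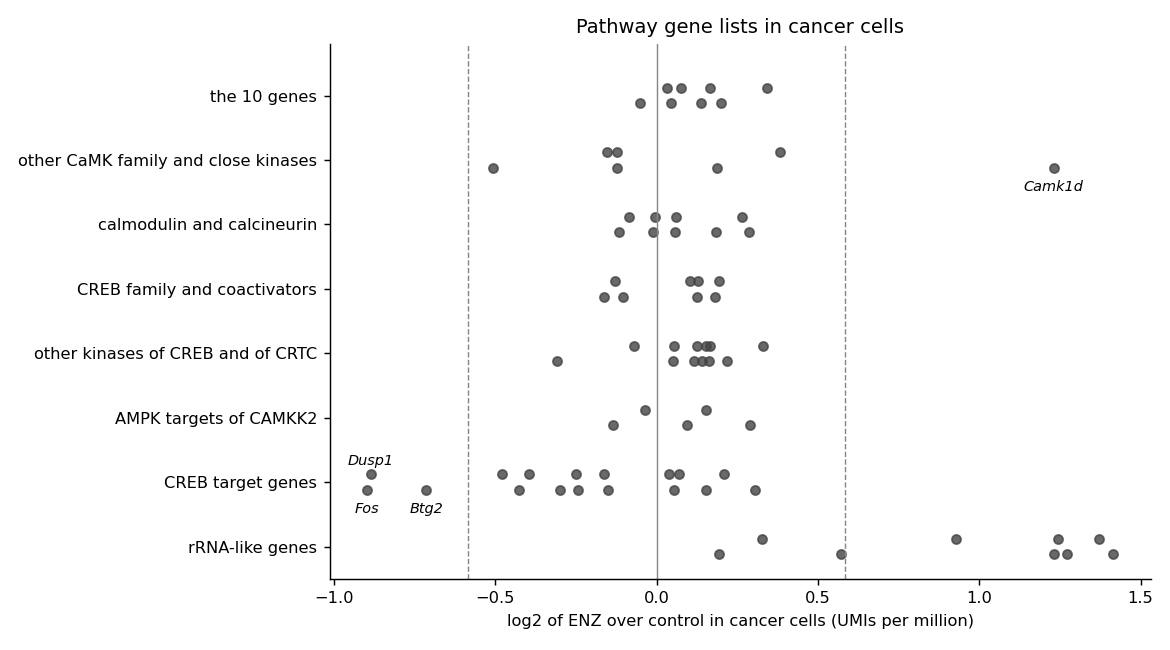
Log2 ratio of ENZ over control in cancer cells for the genes of each list at 10 CPM or more, with dashed lines at 1.5-fold. Camk1d, at 1.23, is among the 6 of 9 rRNA-like genes above the upper line. Camk1d is also drawn in the list of other CaMK and close kinases, as the only gene there past a line. Fos, Dusp1 and Btg2 lie below the lower line, and the remaining lists stay between the lines.

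Of the 21 genes listed as targets of CREB, 17 had at least 10 CPM in cancer cells. Of these, 3 were at least 1.5-fold lower in ENZ, beside 1.0% of all genes, and none was higher, with a median log2 ratio of -0.24 and 11 of the 17 below 0. This list too was chosen with earlier results of these data known, so that its count is not independent. The 3 lower genes are immediate early genes or feedback regulators. Fos, a subunit of the AP-1 transcription factor, was at 1002 CPM in control and 538 CPM in ENZ cells, for a ratio of 0.537 (0.532 to 0.542). Dusp1, a phosphatase of MAP kinases, was at 405 and 219 CPM, a ratio of 0.541 (0.533 to 0.550), and Btg2, an antiproliferative gene, at 206 and 126 CPM, a ratio of 0.610 (0.597 to 0.623). All 3 are also known as targets of MAP kinase signalling, and the part of CREB in these ratios was not tested.

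Genes that the study tied to CREB by other assays, Nr4a1, Cd44, Bcl2 and Sox2, did not pass. Nr4a1, a nuclear receptor, was at 67.0 CPM in control and 60.4 CPM in ENZ cancer cells, for a ratio of 0.901 (0.872 to 0.932). Cd44, a hyaluronan receptor, gave 1.23 (1.22 to 1.25), and Bcl2, an inhibitor of apoptosis, gave 1.03 (0.990 to 1.06). Sox2, a stem cell factor, was under the limit at 8.57 and 6.66 CPM. Past 1.5-fold in either direction were 2 of 18 targets in Cd3 cells, beside 17.1% of all genes. Ncr1 cells gave 2 of 18 beside 29.1%, and C1q cells 4 of 18 beside 16.3%. Ly6c2 cells gave 3 of 17 beside 21.8%, and S100a8 cells 4 of 18 beside 32.7%. All of these targets were lower in ENZ except Bcl2, Dusp1 and the clock gene Per1 in C1q cells. In the immune classes, shares of all genes by direction were not taken. Fos passed in the lower direction in Cd3, Ncr1 and Ly6c2 cells, at -1.10, -0.68 and -0.62 on the log2 scale, and gave -0.34 in S100a8 and 0.40 in C1q cells.

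Promoters were searched for the cAMP response element, from 250 bases before to 50 after each gene's start, as RefSeq gives it on GRCm38.p6. The full element TGACGTCA reads the same on both strands, and its core TGACG, or CGTCA on the other strand, is contained in it. Of 27025 genes with an entry, 2.03% held the full element and 23.0% the core. An entry existed for Camk1, Camk2d, Camkk1, Camkk2, Creb1, Atf1 and Crtc3. None of the 7 held the full element and 3 held the core, while of the 17 target genes with an entry 2 held the full element and 14 the core. The target genes were listed because they are taken as targets of CREB, so their share with a match is not independent of that choice. A match is a description of these letters and not a bound site.

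The windows of 30 bases below show the core in the 3 genes of the pathway and a match in the 3 targets that were lower in ENZ and in Nr4a1, 5′ to 3′ on the strand of the gene, with the element or core in capitals.
Camk1 (chr6:113344090-113344119, minus strand): cttgtctcctgcTGACGaccaaagggcaca
Camkk1 (chr11:73018810-73018839, plus strand): gcgccgggggcgTGACGcgtcggggcccat
Atf1 (chr15:100227757-100227786, plus strand): gtgaccacgcggTGACGcagcacgccggcg
Fos (chr12:85473812-85473841, plus strand): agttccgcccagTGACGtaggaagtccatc
Dusp1 (chr17:26508597-26508626, minus strand): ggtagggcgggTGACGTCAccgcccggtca
Btg2 (chr1:134079303-134079332, minus strand): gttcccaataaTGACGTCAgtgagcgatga
Nr4a1 (chr15:101266794-101266823, plus strand): cccctctccatgCGTCAcggagcgcttaag
Dusp1 and Btg2 were the 2 targets with the full element, 143 and 166 bases before the start. The core stood 185 bases before the start in Camk1, 166 in Camkk1, 90 in Atf1 and 66 in Fos, which held another core 129 bases before the start. The Nr4a1 core shown is 1 of 4 in the searched promoter and stood 40 bases before the start.

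The other genes lie at chr11:73019008-73042073 (Camkk1, plus strand), chr5:122731170-122779409 (Camkk2, minus), chr14:20734875-20794088 (Camk2g, minus), chr18:32934931-33191228 (Camk4, plus), chr1:64532645-64604548 (Creb1, plus), chr15:100227819-100261244 (Atf1, plus), chr3:90254163-90264125 (Crtc2, plus) and chr7:80586627-80688877 (Crtc3, minus). These positions cover whole genes on GRCm38 in GENCODE M21. Camk4 and Crtc3 also overlap other annotated genes, Camk4 on the opposite strand and Crtc3 on both, and the other 6 do not.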

How the data were processed

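Tumors were profiled by droplet scRNA-seq in 1 control and 1 ENZ library. The deposited tables hold raw UMI counts for every gene and barcode, without cell calling or normalization. The file header names Cell Ranger 7.2.0, while the submitters' processing notes name Cell Ranger 2.1.1 and mm10, and whether intronic reads were counted is not given in the sources used here. Class limits were 3 UMIs for Cd3, 1 for Ncr1, 10 for C1q, 3 for Ly6c2 and 20 for S100a8 cells, set from the markers' distributions. Immune classes other than Cd3 cells also allowed at most 1 UMI of Cd3d, Cd3e and Cd3g per cell. No doublets were removed, and the 5% of cells with the highest scrublet scores were left out in an alternative.

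UMIs were summed per class and library. Genes named are the 10 members, the 3 genes of each list with the largest difference in cancer cells at 10 CPM or more, Nr4a1, Cd44, Sox2 and Bcl2, and the 3 genes most like each strongly patterned member. A gene covered by this rule is not reported here. Others named were chosen after their values were seen. The members and lists were chosen with earlier results of these data known. Alternatives covered the cell, level and marker limits, the scaling and the denominator. The steps were tested on simulated data. Scripts ran in Python 3.11.15 with scanpy 1.11.5, pandas 2.3.3, scipy 1.17.1 and numpy 2.4.6.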

Additional observations from a re-analysis of the deposited data

Results flagged for a closer look

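Camk4 differed between the libraries in opposite directions in different classes. Its log2 ratio of ENZ over control was 0.67 in C1q cells, against -1.69 in Ly6c2 and -1.91 in S100a8 cells. Each of these calls ended under an alternative: C1q cells gave 0.42 without the cell of each library with the most Camk4 UMIs, an alternative chosen after seeing the data, and with the marker limits doubled Ly6c2 cells gave -0.33 and S100a8 cells 0.00601. Leaving out the cell with the most Camk4 UMIs did not end the other 2 calls, at -2.08 in Ly6c2 and -1.74 in S100a8 cells. The difference between the classes was not tested, and the main values rest on 4 to 106 UMIs per class and library.

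Camk2d was high in mast cells, which lie outside the 6 classes. It reached 570 CPM (433 to 737) in 20 control cells and 1050.1 CPM (769 to 1401) in 9 ENZ cells, above the 357 and 376 CPM of cancer cells.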

How the results depend on the processing

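In cancer cells, 0 of the genes that met the limit on level passed 1.5-fold under all 13 alternatives, and the log2 ratios of the 8 genes at 10 CPM or more ranged from -0.08 to 0.35. The CREB targets lower in ENZ numbered 3 under each of the 11 alternatives run for them. The count of genes past 2-fold between cancer cells and the immune mean was 4 or 5. The genes counted changed, as given above for Camk1, Camk2d, Camkk2 and Creb1. Camk2d in cancer cells went from 0.08 to 0.0421 on the log2 scale when CPM was averaged over cells and to 0.044 with median-of-ratios scaling, and Camk4 from -0.35 to -0.62 without the highest doublet scores. The count of 8 values past 1.5-fold in immune classes became 5 with median-of-ratios scaling and 1 at a limit of at least 50 CPM. Camk4 in Cd3 cells over the other classes in the control went from 3.24 to 3.50 on the log2 scale when CPM was averaged over cells. Camk4 in S100a8 cells reversed, from -1.91 to 0.00601 with marker limits doubled and to 0.0643 without the highest doublet scores. The cause was not tested. Leaving out barcodes kept in both libraries, which did not change the cancer count, was chosen after seeing the data. So was leaving out the cell with the most Camk4 UMIs. It ended the C1q call and left Camk4 past 1.5-fold in Ly6c2 and S100a8 cells. No paired analysis was possible because each group has 1 library. Depth limits Camkk1 in the immune classes and Camk4 in C1q, Ly6c2 and S100a8 cells.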

Other observations

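Further cell types were set apart among the cells outside the 6 classes, by summed markers, and are given as values only. Dendritic cells (142 control and 67 ENZ cells) held Crtc3 at 161 and 139 CPM, Camk2d at 84.0 and 114 CPM, and Camk1 at 10.2 and 5.08 CPM. B cells (30 and 18) held Camk2d at 325 and 278 CPM and Crtc3 at 121 and 131 CPM, and had no Camk1 UMI in either library. They also held genes of other cells, C1qa at 408 and 49.1 CPM and S100a8 at 250 and 0 CPM, beside the B cell gene Cd79a at 733 and 721 CPM. The part of those cells in the B cell values was not tested. Fibroblasts (16 and 10) held Camk1 at 111 CPM (66.9 to 174) and 47.7 CPM (19.2 to 98.3). Mast cells (20 and 9) held Camk1 at 177 CPM (105 to 279.7) from 18 UMIs and 137 CPM (50.3 to 298) from 6 UMIs. With 1 library per group and few cells, these levels carry no comparison between control and ENZ.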
